A study of Mus musculus with 6 samples.

Results

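The genes described here are *Mt1*, *Mt2*, *Mtf1*, *Slc30a1*, *Slc30a4*, *Slc39a10*, and *Slc39a14*, which encode metallothioneins, the metal-sensing transcription factor MTF-1, and transporters that carry zinc out of or into the cytosol. Every non-control spot whose gene name on the array is identical to any of these 7 symbols was used, which gave 10 of 55681 probes and 7 of 34844 gene names. Expression was measured in macrophages that had been grown for 7 days from the bone marrow of female wild-type C57/B6 mice, with medium conditioned by L929 cells, and the labels give the age of the mice as 6 to 8 weeks, while the methods of the paper give an older range. The 3 groups were untreated cells, cells stimulated for 4 h with LPS, a bacterial ligand of TLR4, and cells that received 10 µM HBX41,108 for 30 min before the 4 h of LPS (LPS+USP7i). HBX41,108 is a small molecule that inhibits the deubiquitinase USP7. The record of the series and the paper state LPS at 100 ng/ml, and the protocol of the samples states 100 ng/µl. The sources used here do not say whether cells without HBX41,108 received its solvent, and any action of the solvent would be part of the comparison of LPS+USP7i with LPS.

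Each group had 2 arrays, which the record of the series describes as independent experiments, so each difference between groups rests on 2 arrays against 2. Every group had its own row of the single slide, and slide row and treatment cannot be told apart. The replicates of a group lay in different columns, with the same column for the same replicate number, so replicate number and slide column cannot be told apart either. Values are given as log2 signal, which is the log2 of the background-corrected spot brightness after quantile normalization between arrays. A probe is called well above background where the scanner software marked it so. A gene is called higher or lower where limma gave an adjusted p under 0.05 over all 55680 probes tested.

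Metallothioneins are small, cysteine-rich proteins that bind zinc and copper in the cytosol, and their genes are switched on by metals, oxidative stress, glucocorticoids, and inflammatory signals. When free zinc rises, MTF-1 binds metal response elements (MREs) in the promoters of metallothionein genes and of *Slc30a1*. Transporters of the SLC30 family (ZnT) move zinc from the cytosol to the outside or into vesicles, and those of the SLC39 family (ZIP) move it into the cytosol, so that macrophages shift zinc between compartments during inflammation.

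Promoter sequences, 250 bases before to 50 bases after the annotated start, were found for 6 of the 7 genes in RefSeq (GRCm38.p6). They were searched on both strands for the MRE core (TGCACNC or TGCGCNC) and for the core of the antioxidant response element (ARE, TGAC and GC with any 3 bases between them). The 4 promoters that held an MRE core are shown upstream of the start because 2 of their genes rose with LPS and the other pair gave no call. MRE cores that lie wholly before the start are in capitals. The sequences are those of *Mt2* at chr8:94172368-94172617 (+ strand), *Mt1* at chr8:94178939-94179088 (+ strand), *Slc30a1* at chr1:191906631-191906780 (+ strand), and *Slc30a4* at chr2:122702664-122702913 (- strand).
Mt2 promoter: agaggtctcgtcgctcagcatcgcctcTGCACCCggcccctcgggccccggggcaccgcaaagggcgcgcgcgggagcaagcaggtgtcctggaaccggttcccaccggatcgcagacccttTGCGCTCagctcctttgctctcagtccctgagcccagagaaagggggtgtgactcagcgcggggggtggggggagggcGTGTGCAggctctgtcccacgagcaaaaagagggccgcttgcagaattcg
Mt1 promoter: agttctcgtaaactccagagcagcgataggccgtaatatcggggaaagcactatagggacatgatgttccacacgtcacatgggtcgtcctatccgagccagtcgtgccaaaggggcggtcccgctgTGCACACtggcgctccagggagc
Slc30a1 promoter: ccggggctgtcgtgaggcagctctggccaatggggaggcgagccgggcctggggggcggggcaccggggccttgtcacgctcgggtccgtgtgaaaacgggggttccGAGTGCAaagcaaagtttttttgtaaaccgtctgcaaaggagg
Slc30a4 promoter: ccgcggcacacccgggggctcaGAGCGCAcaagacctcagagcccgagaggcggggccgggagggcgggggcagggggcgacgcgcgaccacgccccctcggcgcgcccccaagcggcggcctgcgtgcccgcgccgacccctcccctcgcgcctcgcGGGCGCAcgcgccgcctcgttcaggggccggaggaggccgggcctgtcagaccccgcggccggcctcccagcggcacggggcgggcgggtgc

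The *Mt2* promoter held 4 MRE cores, at −223, −128, −50, and 5 relative to the start. The *Mt1* promoter held 3, at −23, 3, and 21. *Slc30a4* had 3 as well, at −228, −92, and −6, the last of which runs across the start, and *Slc30a1* had 2, at −43 and 31. *Mtf1* and both promoters of *Slc39a10* had 0, and *Slc39a14* was not among the sequences. Of 32851 promoters of the same length, 25.7% held at least 1 MRE core, 7.11% at least 2, 1.97% at least 3, and 0.517% at least 4. An ARE core was found at −79 in *Mt2* and at −82 in *Slc30a1* and in 0 of the other promoters searched, and 12.4% of all promoters held at least 1. These matches describe letters in a window whose place depends on the annotated start, and a promoter without a match lacks only these letters in this window.

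**Figure D1:**
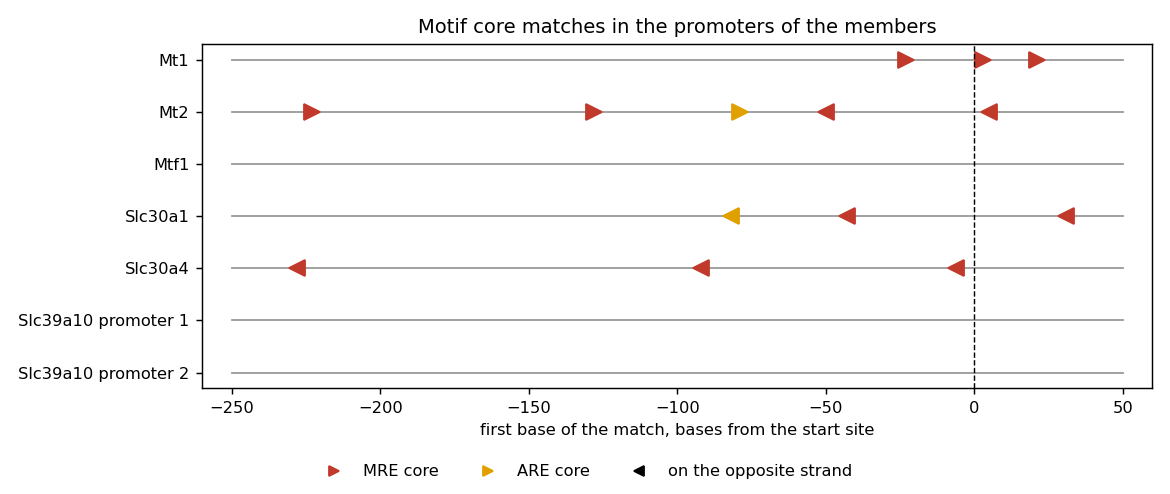
Positions of MRE and ARE core matches in the promoters of 6 of the 7 genes, in bases from the annotated start (dashed line), with arrowheads pointing right for matches on the strand of the gene and left for the opposite strand. *Mt2* has 4 MRE cores and 1 ARE core, and the lines of *Mtf1* and *Slc39a10* are empty.

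The cells carried the markers of macrophages: 8 of 8 listed macrophage genes were well above background. Of these, *Cd14* fell by 1.31 (adjusted p = 0.0184) and *Fcgr1* fell by 1.60 (adjusted p = 0.0317) in LPS+USP7i compared with LPS, and 0 were higher by limma. Without adjustment 4 were lower and 1 was higher at p under 0.05, and 5 of the 8 differences were negative. *Cd14* lost this call without untreated replicate 1 or 2 (adjusted p = 0.0658 each) or LPS replicate 1 (0.0721) or 2 (0.0720), and *Fcgr1* lost it without each of the 6 arrays (0.0593 to 0.121). A dimmer *Cd68* probe was 0.43 higher (adjusted p = 0.0332), and it was 0.43 lower with LPS than in untreated cells (adjusted p = 0.0185). In LPS+USP7i compared with untreated cells *Fcgr1* was 1.26 lower (adjusted p = 0.0374), a call lost in 7 of 15 alternatives, and 7 of the 8 differences were negative. With LPS, *Cd14* rose by 1.69 (adjusted p = 0.00518) and *Itgam* fell by 0.66 (adjusted p = 0.0233). The *Itgam* call was lost without untreated replicate 1 (0.0989) or 2 (0.118) or LPS replicate 1 (0.103) or 2 (0.0809), and the difference was −0.22 with 75th percentile scaling. The summed signal of the 8, with *Csf1r* the brightest, was 729329 and 721266 (untreated), 723673 and 748579 (LPS), and 628259 and 587336 (LPS+USP7i), and its part in the changes below was not tested. *Tnf*, *Il6*, *Il1b*, and *Il12b*, listed as a check of the LPS response, were all 4 higher with LPS than in untreated cells, by a median of 8.93 on the log2 scale, and 2 of the 4 were lower with LPS+USP7i than with LPS. That last count was 4 at an unadjusted p under 0.05 and 0 to 4 over the alternatives, with 0 by limma without either untreated array, either LPS array, or LPS+USP7i replicate 1, and 1 without LPS+USP7i replicate 2. Of 26 markers of other cell types, 11 were well above background in at least 1 group, meaning on both of its arrays, and 8 on no array. The only marker of these called in any comparison was *Zbtb46*, from the dendritic cell list, which was at least 5.65-fold higher with LPS than in untreated cells after quantile normalization (limma adjusted p = 0.00435). Its log2 difference ranged from 0.90 with normexp background correction to 2.65 over the alternatives. The other listed dendritic cell genes, *Flt3* and *Xcr1*, were well above background on 0 arrays. The summed signal of the 3 dendritic cell genes, of which *Zbtb46* was the brightest, was 28.2 and 37.7 (untreated), 113 and 122 (LPS), and 75.8 and 86.1 (LPS+USP7i). That sum moved with the LPS-induced genes below, and its part in their changes was not tested.

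Replicates differed in markers of B cells in the same way in every group. The summed signal of the 3 B cell genes, with *Ms4a1* the brightest, was 224 and 56.7 in replicates 1 and 2 (untreated), 515 and 110 (LPS), and 308 and 74.3 (LPS+USP7i). *S100a9*, a zinc-binding protein of neutrophils and monocytes, showed the opposite order, with log2 signals of 7.68 and 10.72 (untreated), 9.54 and 12.38 (LPS), and 8.35 and 11.57 (LPS+USP7i). Replicate 2 was thus above replicate 1 in all 3 groups, by more than the groups differed from each other. Neutrophil markers were split: *Camp*, *Elane*, *Ngp*, and *Ltf* were higher in replicate 2 of every group and *Ly6g* and *Mpo* in replicate 1. The summed signal of the 6, with *Elane* the brightest, was 4460 and 4245 (untreated), 4144 and 4253 (LPS), and 4541 and 4784 (LPS+USP7i). A marker sum in bulk RNA cannot tell fewer cells of a type from less RNA per cell.

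LPS raised the expression of 3 of the 7 genes, *Slc39a14*, *Mt2*, and *Slc30a4*, and lowered 0 of them by limma. Without adjustment, 4 were higher and 0 lower at p under 0.05. The calls of *Slc30a4* and *Mt2* were lost with some single arrays left out, as given below, and that of *Slc39a14* was not. Of all gene names, 7.98% were called higher and 12.8% lower in this comparison, and of the 18343 genes well above background, to which all 7 belong, 13.8% and 23%. These shares depend on the scaling: with 75th percentile scaling 12184 of 34844 gene names were higher and 4051 lower, against 2779 and 4446 here. With HBX41,108 in addition to LPS, 2 of the 7, *Mt2* and *Slc39a14*, were lower than with LPS alone and 0 were higher by limma. Of all gene names 4.28% were lower and 5.51% higher, and of the genes well above background 7.29% and 9.73%. The calls of *Mt2* and *Slc39a14* were both lost without either LPS array. At an unadjusted p under 0.05 limma had 3 lower and 3 higher. These calls need the spread estimated with both untreated arrays: without untreated replicate 1 or 2, limma called 0 genes of the whole array in this comparison, although 8013 and 8014 had an unadjusted p under 0.05. Relative to untreated cells, LPS+USP7i left 1 of the 7, *Slc39a14*, higher and 0 lower by limma, and 4 and 0 at an unadjusted p under 0.05. Of all gene names 6.15% were called higher and 8.72% lower, and of the genes well above background 10.8% and 15.6%. With 75th percentile scaling 12216 of all gene names were higher and 3363 lower in this comparison, against 2144 and 3040. Each gene is counted here by its brightest probe. The median log2 difference over the 7 genes was 0.30, −0.33, and 0.41 in the same order, and that over all gene names was within rounding of 0.00 in each comparison. Over the genes well above background the medians were −0.19, 0.06, and −0.09. The 3 comparisons share arrays with each other, so their values are set side by side and not related to each other.

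**Figure D2:**
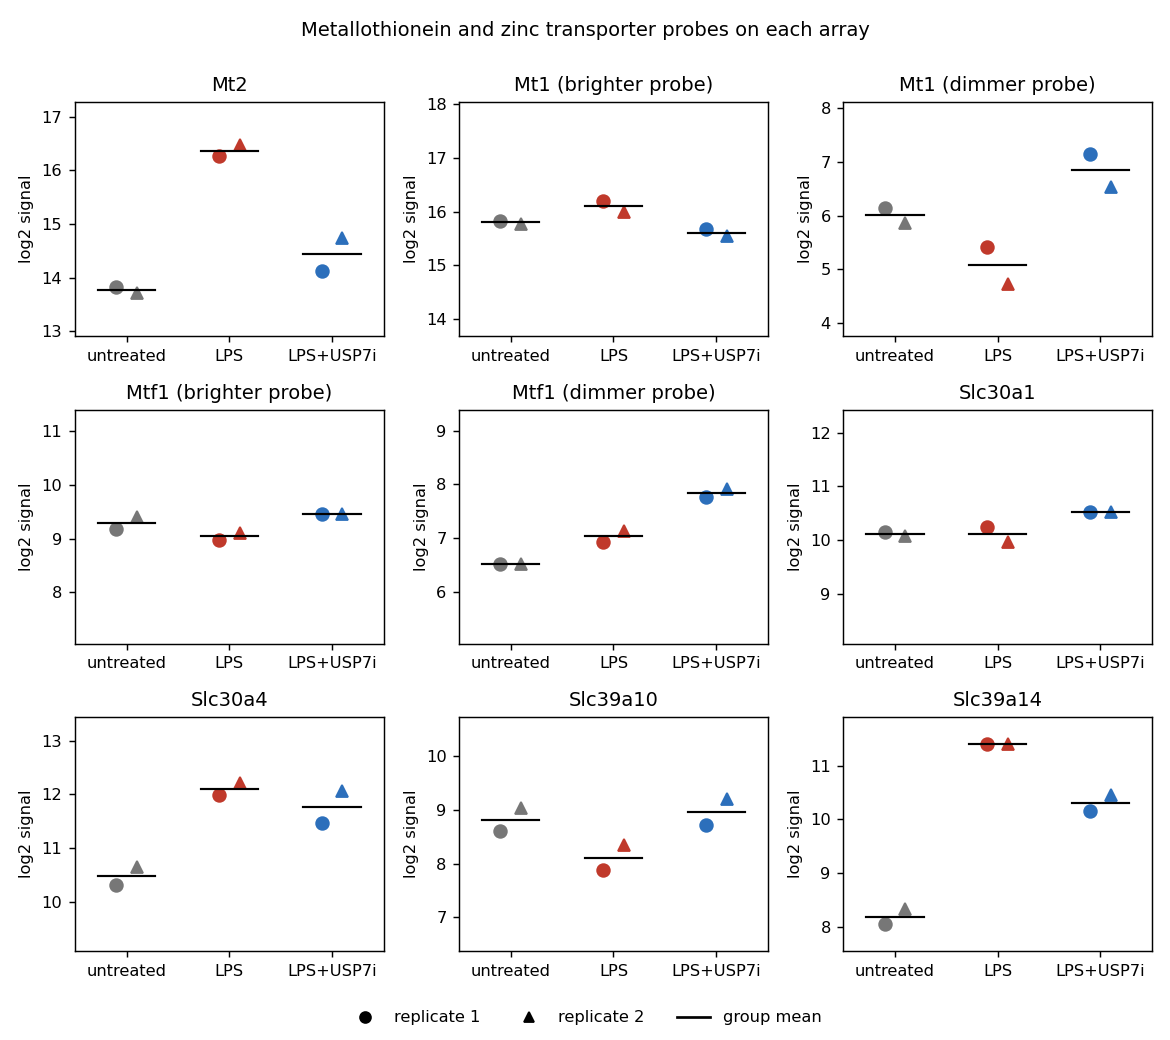
Log2 signal of the 9 probes of these genes that were above background, in untreated, LPS, and LPS+USP7i cells, with a circle for replicate 1, a triangle for replicate 2, and a line for the group mean; every panel spans the same number of log2 units. *Mt2*, *Slc30a4*, and *Slc39a14* have both LPS arrays above both untreated arrays, and the probes of *Mt1* differ in direction.

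*Mt2*, a ubiquitous metallothionein, had log2 signals of 13.83 and 13.72 (untreated), 16.26 and 16.47 (LPS), and 14.13 and 14.74 (LPS+USP7i). Both LPS arrays were above all others, and the LPS+USP7i arrays lay between the other groups without overlap. With LPS it rose by 2.59 on the log2 scale (SE 0.24, adjusted p = 0.00760), a 6.03-fold increase. In LPS+USP7i compared with LPS it fell by 1.93 (SE 0.24, adjusted p = 0.0272), a 3.82-fold difference that was −2.14 in replicate 1 and −1.73 in replicate 2. Relative to untreated cells, LPS+USP7i was 0.66 higher (95% interval 0.00 to 1.32, adjusted p = 0.194), above the threshold. The LPS call was lost without untreated replicate 2 (adjusted p = 0.0547, range over 15 alternatives 0.000288 to 0.0547). The inhibitor call was lost without untreated replicate 1 (adjusted p = 0.0870) or 2 (0.0870) and without LPS replicate 1 (0.0968) or 2 (0.103), with differences of −1.93, −1.93, −2.04, and −1.83. Over its 15 alternatives the adjusted p ranged from 0.00235 to 0.103 and the difference from −2.24 to −1.62. The *Mt2* probe lies at chr8:96697371-96697430 in mm9, the build of all probe positions given here.

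*Mt1*, the other ubiquitous metallothionein and the neighbor of *Mt2* on chromosome 8, was measured by 2 probes whose differences between groups had opposite signs. The brighter probe, at chr8:96704165-96704224, had log2 signals of 15.82 and 15.78 (untreated), 16.19 and 16.00 (LPS), and 15.68 and 15.54 (LPS+USP7i). The groups did not overlap, with LPS highest and LPS+USP7i lowest. LPS minus untreated was 0.30 (SE 0.10, adjusted p = 0.148) and LPS+USP7i minus LPS was −0.49 (SE 0.10, adjusted p = 0.0709), so neither passed. The dimmer probe, at chr8:96703844-96703903 and assigned to an Ensembl transcript, gave 6.15 and 5.86 (untreated), 5.41 and 4.73 (LPS), and 7.14 and 6.54 (LPS+USP7i). LPS was lowest here and LPS+USP7i highest, again without overlap, and LPS replicate 2 was not well above background. The differences were −0.93 (adjusted p = 0.174) for LPS minus untreated and 1.77 (SE 0.34, adjusted p = 0.0609) for LPS+USP7i minus LPS. Among the changes of processing, the dimmer probe passed for LPS+USP7i minus LPS with normexp background correction (0.73, adjusted p = 0.0299), with the authors' log2 table (1.32, 0.0452), and with dim probes left out (1.77, 0.0142), over a range of 0.0142 to 0.175. The brighter probe passed in the same comparison with normexp (0.0166), with 75th percentile scaling (0.0364), and with dim probes left out (0.0498), over a range of 0.0166 to 0.178, with the opposite sign. Its LPS minus untreated difference passed with normexp (0.33, adjusted p = 0.0477) and with 75th percentile scaling (0.84, 0.00563). With the replicate number as a block, the dimmer probe passed for LPS minus untreated (adjusted p = 0.0366) and LPS+USP7i minus LPS (0.0380). Because the probes differed in sign, no direction is given for the gene as a whole.

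The differences of *Mt2* and of the brighter *Mt1* probe were compared on the same arrays. For LPS minus untreated that of *Mt2* exceeded that of *Mt1* by 2.29 log2 units, 2.06 in replicate 1 and 2.52 in replicate 2. In LPS+USP7i minus LPS *Mt2* minus *Mt1* was −1.44, −1.63 in replicate 1 and −1.26 in replicate 2. In both comparisons the within-array differences of the groups did not overlap, and the exact permutation test of 2 arrays against 2 gave a two-sided p of 0.333, the smallest it can give. The scanner software marked 0 spots as saturated on any array. Whether bright signals such as that of *Mt1* were compressed short of saturation was not tested.

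*Mtf1*, which encodes the transcription factor that senses zinc, was measured by 3 probes on chromosome 4. The brightest probe, at chr4:124526365-124526424, had log2 signals of 9.19 and 9.41 (untreated), 8.99 and 9.11 (LPS), and 9.47 and 9.46 (LPS+USP7i). LPS was lowest on both arrays, but LPS minus untreated (−0.25, adjusted p = 0.224) and LPS+USP7i minus LPS (0.41, adjusted p = 0.103) did not pass. A dimmer probe, at chr4:124522092-124522151, gave 6.51 and 6.52 (untreated), 6.94 and 7.13 (LPS), and 7.77 and 7.92 (LPS+USP7i). Its groups did not overlap and stood in a different order, with untreated cells lowest. It was 0.52 higher with LPS than in untreated cells (SE 0.10, adjusted p = 0.0413) and 0.81 higher with LPS+USP7i than with LPS (SE 0.10, adjusted p = 0.0282). LPS+USP7i exceeded untreated cells by 1.33 (SE 0.10, adjusted p = 0.00841), a 2.51-fold difference, where the brightest probe gave 0.16 (adjusted p = 0.481). The calls are those of 1 probe and not of the gene. The probe at chr4:124524812-124524871 was well above background on 0 of 6 arrays, with log2 signals between 2.11 and 2.51.

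The calls of the dimmer *Mtf1* probe depended on single arrays. The difference between LPS and untreated cells lost its call without each of the 6 arrays, with adjusted p values of 0.162 without untreated replicate 1 or 2, 0.0634 and 0.107 without LPS replicate 1 or 2, and 0.0642 without LPS+USP7i replicate 1 or 2. It was lost also with normexp (0.0517), with the authors' table (0.141), with a trended prior (0.0740), and in a fit of the 2 groups compared (0.0642), over a range of 0.0222 to 0.162. The difference between LPS+USP7i and LPS was lost without each array too, with 0.0899 or 0.0900 without an untreated array, 0.0816 and 0.0569 without LPS replicate 1 or 2, and 0.0698 without either LPS+USP7i array, over a range of 0.00630 to 0.0900. LPS+USP7i minus untreated was lost without untreated replicate 1 (0.0549) or 2 (0.0578), over a range of 0.000962 to 0.0578.

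*Slc30a1*, the zinc exporter of the plasma membrane, had log2 signals of 10.16 and 10.08 (untreated), 10.24 and 9.97 (LPS), and 10.53 and 10.53 (LPS+USP7i). Untreated and LPS cells overlapped, and both LPS+USP7i arrays were above the other 4 arrays. LPS minus untreated was −0.01 (95% interval −0.32 to 0.30, limma p before adjustment 0.933). LPS+USP7i minus LPS was 0.42 (95% interval 0.12 to 0.73, adjusted p = 0.115) and LPS+USP7i minus untreated was 0.41 (95% interval 0.11 to 0.72, adjusted p = 0.105), and neither passed. *Slc30a1* passed in 1 alternative, LPS+USP7i minus untreated with 75th percentile scaling (0.45, adjusted p = 0.0426, range 0.0426 to 0.334). That scaling moved the median of all gene names by 0.44 in the same comparison. Its probe lies at chr1:193736760-193736819.

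*Slc30a4* encodes a zinc transporter of endosomal and secretory vesicles. Its log2 signals were 10.31 and 10.64 (untreated), 11.98 and 12.20 (LPS), and 11.46 and 12.07 (LPS+USP7i). Both groups given LPS lay above untreated cells, and they overlapped with each other. LPS raised it by 1.62 (SE 0.26, adjusted p = 0.0261), a 3.07-fold increase, 1.67 in replicate 1 and 1.56 in replicate 2. LPS+USP7i minus LPS was −0.33 (95% interval −1.05 to 0.40, adjusted p = 0.580). LPS+USP7i minus untreated was 1.29 (95% interval 0.57 to 2.01) and missed the threshold at an adjusted p of 0.0552, though it passed in 8 of 15 alternatives, over a range of 0.00734 to 0.205. The LPS call was lost without untreated replicate 1 (difference 1.45, adjusted p = 0.117) or 2 (1.78, 0.0885) and without LPS replicate 1 (1.73, 0.0947) or 2 (1.51, 0.109), and ranged from 0.00226 to 0.117. Its probe lies at chr2:122507056-122507115.

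*Slc39a14* encodes an importer of the plasma membrane that carries zinc, manganese, and iron not bound to transferrin. Its log2 signals were 8.04 and 8.32 (untreated), 11.40 and 11.40 (LPS), and 10.15 and 10.46 (LPS+USP7i). The groups did not overlap, with LPS highest and LPS+USP7i between LPS and untreated cells. With LPS it rose by 3.21 (SE 0.15, adjusted p = 0.00327), a 9.28-fold increase, and this call held in all 15 alternatives (adjusted p 5.04e-05 to 0.0305). With LPS+USP7i it fell by 1.10 relative to LPS (SE 0.15, adjusted p = 0.0346), a 2.14-fold difference, −1.25 in replicate 1 and −0.94 in replicate 2. LPS+USP7i was still 2.12 above untreated cells (SE 0.15, adjusted p = 0.00800), 4.34-fold, in all 15 alternatives (0.000314 to 0.0470). The inhibitor call was lost without untreated replicate 1 (adjusted p = 0.0786) or 2 (0.0786), without LPS replicate 1 (0.131) or 2 (0.122), and without LPS+USP7i replicate 1 (0.0930), while the difference stayed between −1.25 and −0.94 over all alternatives. Its probe lies at chr14:70703394-70703453.

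*Slc39a10*, a zinc importer of the plasma membrane, had log2 signals of 8.61 and 9.04 (untreated), 7.89 and 8.34 (LPS), and 8.71 and 9.21 (LPS+USP7i). LPS arrays were below all others, and untreated and LPS+USP7i cells overlapped. LPS minus untreated was −0.71 (95% interval −1.49 to 0.08, adjusted p = 0.215), −0.72 in replicate 1 and −0.70 in replicate 2. LPS+USP7i minus LPS was 0.85 (95% interval 0.06 to 1.63, adjusted p = 0.191), 0.82 in replicate 1 and 0.87 in replicate 2. LPS+USP7i minus untreated was 0.14 (95% interval −0.65 to 0.93, adjusted p = 0.889). With the replicate number as a block, limma called *Slc39a10* lower with LPS (adjusted p = 0.0179) and higher in LPS+USP7i minus LPS (0.0368). The probe lies at chr1:46865343-46865402.

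**Figure D3:**
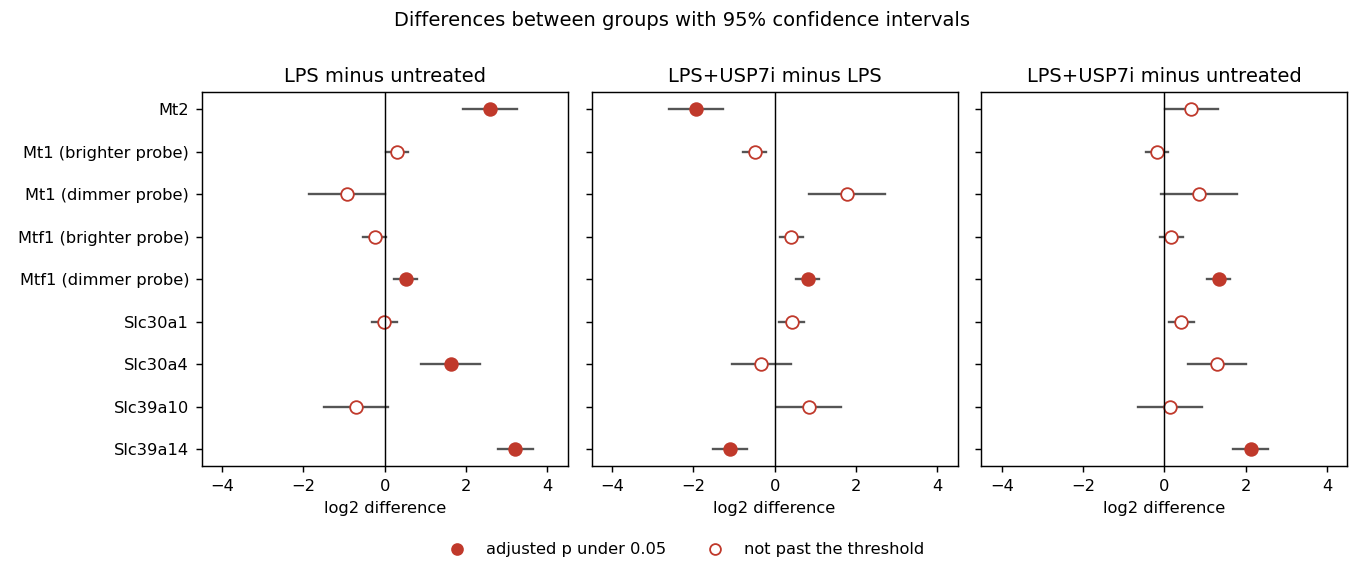
Log2 differences between groups for the 9 probes, with 95% confidence intervals from limma that are not adjusted for the number of probes; filled circles have an adjusted p under 0.05. The *Slc39a14* and *Mt2* probes are filled to the right of 0 with LPS (3.21 and 2.59) and to the left of 0 for LPS+USP7i minus LPS (−1.10 and −1.93).

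**Figure D4:**
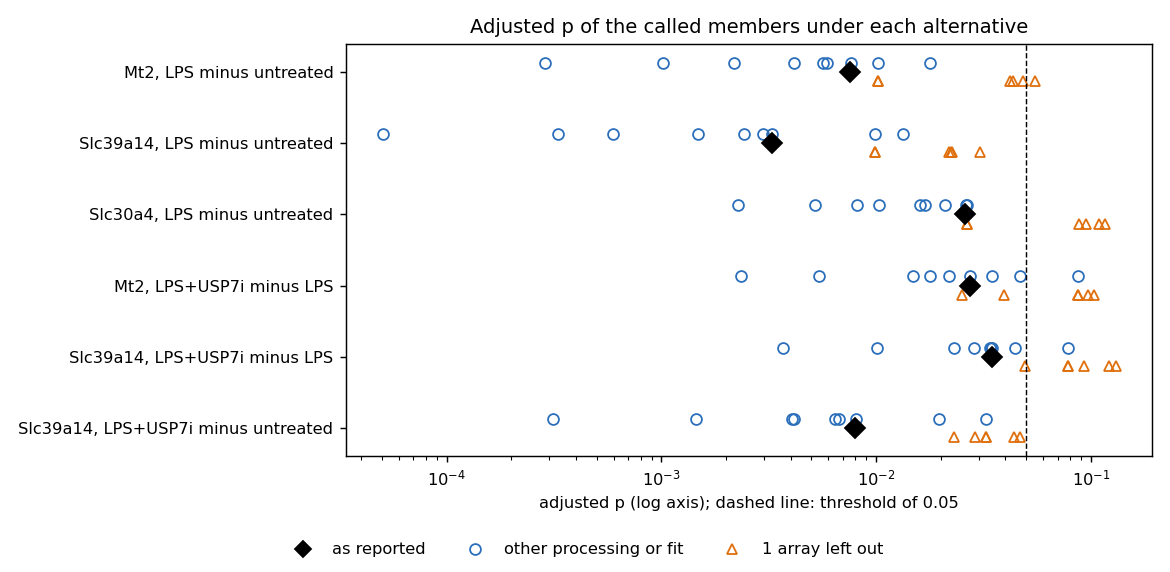
Adjusted p from limma (log axis) of each called gene, as reported (diamond), under other processing or fits (circles), and with 1 array left out (triangles), with a dashed line at 0.05. For *Slc39a14* with LPS all points lie left of the line, up to 0.0305, and for *Mt2* in LPS+USP7i minus LPS the points reach 0.103.

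The other zinc transporters, 20 genes of which 15 were well above background on both arrays of a group, went in both directions. With LPS, 5 of the 20 were higher and 5 lower than in untreated cells, with a median of −0.02. Of all gene names 7.98% were higher and 12.8% lower, and of the genes well above background 13.8% and 23%. The 3 SLC30 genes with the largest changes were *Slc30a7* (1.16, adjusted p = 0.00431) and *Slc30a6* (1.14, adjusted p = 0.0286), which were higher, and *Slc30a5* (−1.01, adjusted p = 0.0206), which was lower. All 3 encode transporters that load zinc into the early secretory pathway. Dimmer *Slc30a7* probes gave 0.57 (limma adjusted p = 0.288) and 0.65 (0.0290), so the value above is that of the brightest probe. Among SLC39 genes, *Slc39a3* (−0.89, adjusted p = 0.00443) and *Slc39a6* (−0.81, adjusted p = 0.0455) were lower and *Slc39a13* (0.76, adjusted p = 0.0386) was higher. The remaining calls, named after their values were seen, were *Slc39a1* and *Slc39a8*, higher, and *Slc30a2* and *Slc39a7*, lower. *Slc30a2* was not well above background on either LPS array, and its fall was at least 1.08-fold after quantile normalization. Without LPS replicate 1 or 2 or untreated replicate 1 or 2, 1 of the 20 was called higher in each case. The counts called lower without these arrays were 2, 3, 1, and 1, and without either LPS+USP7i array 3 were higher and 3 lower. *Slc30a7* and *Slc39a3* passed in all 15 alternatives.

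With HBX41,108 added before LPS, 2 of the 20 were higher than with LPS alone and 3 lower, with a median of 0.12. Of all gene names 5.51% were higher and 4.28% lower, and of the genes well above background 9.73% and 7.29%. Over the alternatives the counts among the 20 reached 4 higher and 4 lower. *Slc39a6* was 1.21 higher (adjusted p = 0.0324), and *Slc30a2*, which was not well above background on either LPS array, was at least 1.41-fold higher after quantile normalization (adjusted p = 0.0203). That bound is built by raising each dim array to the faintest signal that was still well above background there. The log2 difference of *Slc30a2* ranged from 0.35 with normexp to 1.40, and its call was lost without untreated replicate 1 (adjusted p = 0.0736) or 2 (0.0736), LPS replicate 1 (0.0588), or LPS+USP7i replicate 1 (0.0640), over a range of 0.00554 to 0.115. *Slc39a13* fell by 1.07 (adjusted p = 0.0319), the brightest *Slc30a7* probe fell by 0.81 (adjusted p = 0.0177), and *Slc39a1* fell by 0.60 (adjusted p = 0.0430). Dimmer *Slc30a7* probes did not pass, with 0.01 (limma p before adjustment 0.973) and −0.55 (limma adjusted p = 0.0652). Without untreated replicate 1 or 2, 0 of the 20 passed in this comparison. Without LPS replicate 1 or 2, 0 and 1 were higher and 1 was lower, and without LPS+USP7i replicate 1 or 2, 2 and 1 were higher and 0 and 2 lower. Relative to untreated cells, 2 were higher with LPS+USP7i, *Slc39a8* (0.83, adjusted p = 0.00999) and *Slc39a9* (0.63, adjusted p = 0.0388). The 2 called lower were *Slc39a3* (−0.96, adjusted p = 0.00644) and *Slc30a5* (−0.77, adjusted p = 0.0489). Of all gene names 6.15% were higher and 8.72% lower, and of the genes well above background 10.8% and 15.6%. Over the alternatives the count higher among the 20 reached 6 and the count lower 2. In that comparison 0 were higher and 1 lower without either untreated array, 3 and 1 without LPS+USP7i replicate 1, 1 and 1 without LPS+USP7i replicate 2, and 2 and 2 without either LPS array. *Slc30a5* lost its call without untreated replicate 1 (adjusted p = 0.192) or 2 (0.153) and without LPS+USP7i replicate 1 (0.160) or 2 (0.135). *Slc39a9*, well above background on 1 of 2 untreated arrays, lost its call without untreated replicate 1 (adjusted p = 0.116) or 2 (0.162) and without LPS+USP7i replicate 1 (0.119) or 2 (0.128), over a range of 0.0140 to 0.385, with a difference between 0.17 and 0.91. With 75th percentile scaling 0 of the differences whose values are given here changed sign.

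**Figure D5:**
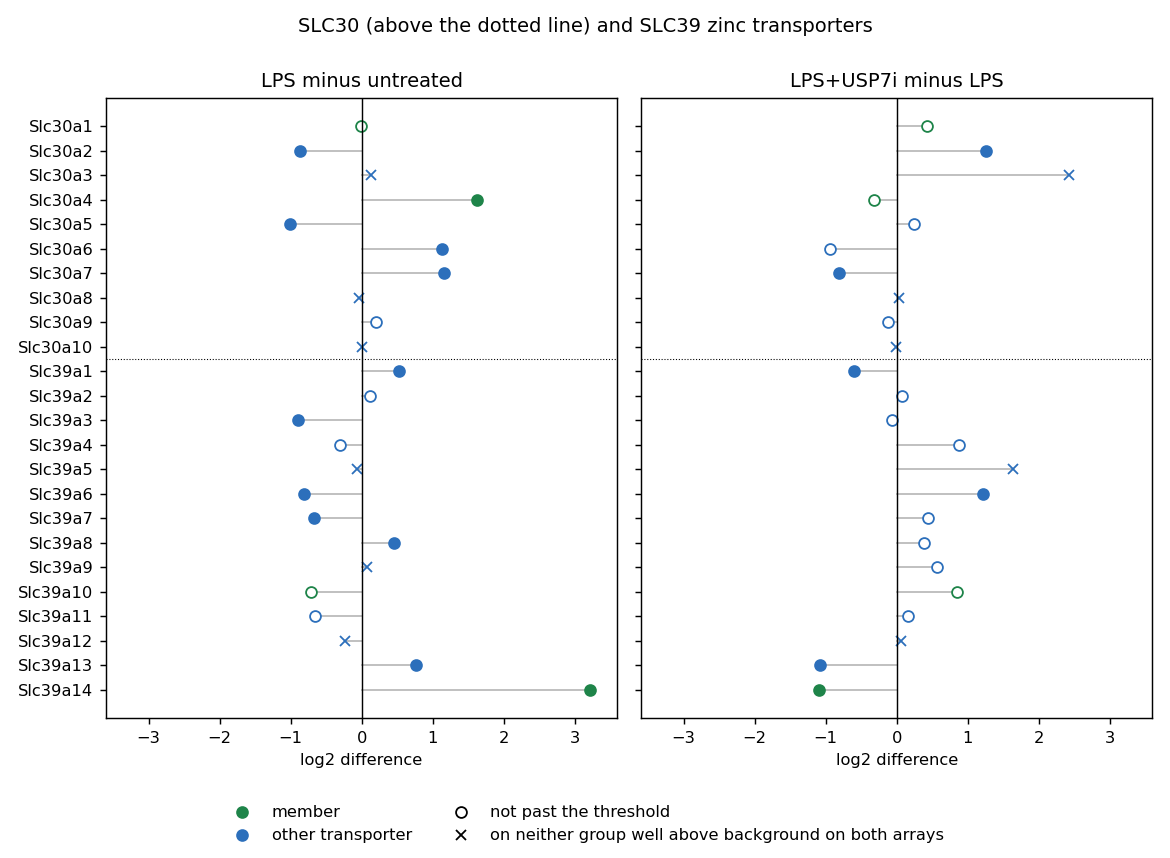
Log2 differences of all SLC30 and SLC39 genes on the array, LPS minus untreated on the left and LPS+USP7i minus LPS on the right, with the members described above in green and the 20 others in blue; filled symbols passed the threshold and crosses were too dim in both groups to be well above background. *Slc39a14* stands furthest to the right with LPS, at 3.21, and the others lie on both sides of 0.

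Of the other metallothioneins, *Mt3* and *Mt4*, 1 of 2 was well above background, and limma called 0 of 2 in any comparison. At an unadjusted p under 0.05, 1 was lower in LPS+USP7i minus LPS and 0 differed in the other comparisons. Of 9 copper handling genes, 8 were well above background on both arrays of a group. With LPS, 2 of the 9 were higher and 1 lower, with a median of −0.29, against 13.8% and 23% of the genes well above background. The count lower reached 3 over the alternatives. The SLC31 genes rose, *Slc31a2* by 1.71 (adjusted p = 0.00395) and *Slc31a1* by 0.97 (adjusted p = 0.00490), both in all 15 alternatives. *Ccs*, the copper chaperone of superoxide dismutase, fell by 0.45 (adjusted p = 0.0461, range 0.0262 to 0.598). *Ccs* lost this call in 10 of 15 alternatives, among them without each untreated array and each LPS array, and its difference ranged from −0.55 to −0.10. With LPS+USP7i, *Slc31a2* fell by 1.02 (adjusted p = 0.0193) and *Slc31a1* fell by 0.51 (adjusted p = 0.0298) relative to LPS. By limma 0 of the 9 were higher and 2 lower, against 9.73% and 7.29% of the genes well above background, and 1 was higher at an unadjusted p under 0.05. Both calls were lost without either untreated array and without either LPS array, and 1 of them without either LPS+USP7i array. Relative to untreated cells 2 were higher with LPS+USP7i and 1 lower, against 10.8% and 15.6% of the genes well above background. Over the alternatives the count higher reached 4 and the count lower 2. In that comparison 0 were higher without either untreated array, either LPS array, or LPS+USP7i replicate 2, and 1 without LPS+USP7i replicate 1. The gene called lower was *Ccs* (−0.55, adjusted p = 0.0366), which lost its call without untreated replicate 1 (0.152) or 2 (0.150) and without LPS+USP7i replicate 1 (0.114) or 2 (0.0818). Of *S100a8*, *S100a9*, *Gpr39*, and *Tmem163*, which bind or sense zinc, 2 of 4 were well above background and limma called 0, also 0 at an unadjusted p under 0.05. Without LPS+USP7i replicate 1, 1 of the 4 was called higher in LPS+USP7i minus LPS and 1 in LPS+USP7i minus untreated.

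Genes of the response to metals and electrophiles were listed because many reagents that raise metallothioneins also raise them. Of the 12 listed, 11 were found on the array. With HBX41,108 before LPS, 8 of 11 were higher than with LPS alone and 0 lower, with a median of 2.20, against 9.73% and 7.29% of the genes well above background. The list was chosen with earlier results of these data known, so its count is not a test. Any link of these genes to the members was not tested. *Hmox1*, the heme-degrading oxygenase, rose by 4.53 (adjusted p = 0.0113), *Osgin1* by 4.12 (adjusted p = 0.0215), and *Srxn1*, sulfiredoxin, by 3.97 (adjusted p = 0.0144). The count was 0 without untreated replicate 1 or 2, 5 and 4 without LPS replicate 1 or 2, and 5 and 7 without LPS+USP7i replicate 1 or 2. Relative to untreated cells 7 were higher and 0 lower, with a median of 3.20, against 10.8% and 15.6%. The count higher was 5 and 4 without untreated replicate 1 or 2, 7 without either LPS array, and 6 without either LPS+USP7i array. With LPS alone 3 were higher and 2 lower, against 13.8% and 23%, with a median of −0.46, led by *Slc7a11* (3.68, adjusted p = 0.00774), *Hspa1a* (3.52, adjusted p = 0.0212), and *Osgin1* (−2.67, adjusted p = 0.0258). Over the alternatives the counts reached 3 higher and 4 lower. Without either untreated array or either LPS array these counts were 2 higher and 0 lower.

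Beyond these lists, 10395 genes with a RefSeq match and a signal well above background on all 6 arrays were ranked by how closely their log2 signals, each minus its untreated mean, followed those of a member over the 6 arrays. The closest genes are given for 6 of the 7 members. The closest to *Mt2* were *Fchsd2*, *Slfn9*, and *Lztfl1*, with root-mean-square differences of 0.114, 0.134, and 0.140 log2 units. For *Slc39a14* they were *Icosl* (0.158), *Malt1* (0.175), and *Otud1* (0.198), and for *Slc30a4* *Dusp11* (0.0608), *Ass1* (0.103), and *Jarid2* (0.106). The brighter *Mt1* probe was followed by *Rab2b*, *Sema4d*, and *Pias1* (0.0527 to 0.0564). *Set*, *Ube2j2*, and *Golt1b* lay closest to *Slc30a1* (0.0615 to 0.0647) and *Hgsnat*, *Padi2*, and *Nek6* to *Slc39a10* (0.108 to 0.118). Genes with small differences have many close neighbors on this measure, so the distances are not compared between members.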

How the data were processed

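The arrays were single-color Agilent mouse arrays, and the members were taken from all non-control spots by gene name. For every array the authors deposited intensities of spots, corrected for background by Agilent Feature Extraction 10.7.3.1, with probe positions on mm9. They also deposited a table of log2 values, which the methods describe as quantile-normalized with limma. That table was used only as an alternative, and its background correction is not given in the sources used here.

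Here, processed intensities were quantile-normalized on the log2 scale over non-control spots, outlier spots were left out, and spots of a probe were averaged. A linear model of the 3 groups was fitted to all 6 arrays with limma 3.58.1 in R 4.3.3 (3 residual and 1.05 prior degrees of freedom). Benjamini-Hochberg adjustment ran over 55680 probes. A gene was represented by its probe with the highest mean. Between 25002 and 27467 of 59305 spots per array were well above background. Between the arrays of a group r was 0.996 (untreated), 0.993 (LPS), and 0.991 (LPS+USP7i) over 20721 probes. The named genes are all 7 members and, of each list and comparison, up to 3 called genes with the largest change among those well above background. Members, lists, and rule were chosen with earlier results of these data known. Alternatives were 75th percentile scaling, normexp with an offset of 50, the deposited table, a filter on dim probes, a trended prior, outlier spots kept, the replicate number as a block, fits of only the compared groups, each array left out, and the mean of all probes. Lists were run under the same alternatives after the data were seen. No column of the files lacked a sample (0 columns).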

Additional observations from a re-analysis of the deposited data

How the results depend on the processing

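Counts of called members and of called listed genes were recomputed under 15 alternatives, except for lists of cell markers. So were the differences of the members and of the named listed genes. The dimmer *Mt1* and *Mtf1* probes had 14, without the mean of all probes. Of the log2 differences of member probes, 332 kept their sign and their side of the threshold, 35 lost and 22 gained a call, and 10 changed sign, none of them a call. Averaging all probes of a gene gave *Mt1* −0.32, 0.64, and 0.33 for LPS minus untreated, LPS+USP7i minus LPS, and LPS+USP7i minus untreated, because its probes had opposite signs, and *Mtf1* 0.0322 for LPS minus untreated. With 75th percentile scaling, *Mt1* was 0.21 for LPS+USP7i minus untreated and *Slc30a1* 0.0451 for LPS minus untreated. That scaling moved the median of all genes by 0.40 in LPS minus untreated and 0.44 in LPS+USP7i minus untreated. It called 12184 genes higher and 4051 lower with LPS, against 2779 and 4446 with quantile normalization, and 12216 and 3363 in LPS+USP7i minus untreated, against 2144 and 3040. With each array left out, LPS minus untreated ranged from −0.14 to 0.12 for *Slc30a1*, and LPS+USP7i minus untreated from −0.11 to 0.39 for *Slc39a10*. An arm left with 1 array was assumed to vary like the other groups.

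Counts of members called changed as follows. With LPS, 4 were higher with 75th percentile scaling and with normexp, and 1 to 3 with an array left out. In LPS+USP7i minus LPS, 3 were lower with 75th percentile scaling, normexp, and dim probes left out, 0 in a fit of the 2 groups and 0 to 2 with an array left out. That fit called 0 genes of the whole array by limma (smallest adjusted p = 0.0561), although 8014 had an unadjusted p under 0.05, as did 8013 and 8014 without untreated replicate 1 or 2, where 0 passed as well. In LPS+USP7i minus untreated, 3 were higher with 75th percentile scaling and with the mean of probes, 2 with normexp, the deposited table, dim probes left out, and a trended prior, and 1 to 2 with an array left out. The cause was not tested. Fewer arrays leave fewer degrees of freedom for the spread.

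Arrays with the same replicate number share a number in the labels and a column of the slide, and no label says that they share an experiment. Their deviations correlated with r = 0.468, 0.398, and 0.422 between pairs of groups. With the replicate block, 1 member was lower with LPS, *Slc39a10* (adjusted p = 0.0179), which was also the 1 called higher in LPS+USP7i minus LPS (0.0368), and 2 were higher in LPS+USP7i minus untreated. The dimmer *Mt1* probe passed under the block for LPS minus untreated (0.0366) and LPS+USP7i minus LPS (0.0380), and 1 of the 4 zinc binding and sensing genes was called higher with LPS. Probes near background limit how small a change could be seen.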
